A study of Pardosa pseudoannulata with 16 samples.

Results

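The comparison described here sets UH against UM, a pair of the 4 groups of whole spiders in a study of urea, a nitrogen fertiliser, and the hunting wolf spider Pardosa pseudoannulata. It rests on 8 of the 16 libraries, 4 of UH and 4 of UM. The table lists 136360 sequence clusters, and 28575 of them (21%) were tested, those that reached 1 FPKM in 4 or more of these 8 libraries. FPKM divides the fragments of a cluster by its length and by the mapped total of its library, and is therefore a relative level.

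The design text describes adult spiders collected in rice fields, kept in the laboratory and held on soil with urea at 0, 200 or 400 mg/kg for 30 days. It does not tie these 3 concentrations to the 4 groups. The labels give UH, UM, UL and Ck the same treatment entry and the same tissue, whole spider, so UH and UM are used here as names, with no concentration and no order. Nothing in the labels says whether a library came from 1 spider or from a pool, nor that replicates were separate animals. P-values therefore measure the spread between these libraries, which may be technical.

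Urea in soil is split by microbial urease to ammonia, and arachnids excrete most of their own waste nitrogen as guanine, a purine. RNA of a whole spider mixes muscle, midgut diverticula, silk and venom glands, reproductive tissue and nervous system. Fewer cells of a type and less RNA per cell cannot be told apart in such a sample. The table gives neither names nor sequences for its clusters, so roles of single clusters are not stated and the tissue label was not checked against marker genes. Several clusters may belong to 1 gene.

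Depth estimated from the steps of low values was 18.32 to 19.4 M (mega) fragments in UH and 16.52 to 18.85 M in UM. Correlations of log2(FPKM + 1) across clusters were 0.879 to 0.935 between UH libraries, 0.884 to 0.940 between UM libraries and 0.819 to 0.902 between UH and UM libraries. The leading principal component of the 8 libraries (34.8% of variance) held UH between 26.5 and 75.7 and UM between -62.0 and -43.5. On the next component (20.6%) UH replicate 4 (-58.2) and UM replicate 3 (-75.9) stood apart from the other six libraries, which lay between 7.60 and 39.1. Counts without this pair are given beside the main ones.

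Far more clusters were lower in UH than higher. The 8 largest named falls were in clusters that averaged 185 to 669 FPKM in UM and were at 0 or near 0 in every UH library. The rises that passed were fewer, and 0 of them reached 5 log2 units, against 28 of the falls. In limma, on log2(FPKM + 1) with all 16 libraries in the fit, 1304 of 28575 clusters passed an adjusted p of 0.05 (4.56%). Of these, 125 rose (0.437%) and 1179 fell (4.13%), so that 90.4% of the calls were falls. The median log2 fold change was 1.26 among the rises and -0.80 among the falls. Falls outnumbered rises with any single library left out, but the count of calls was lower without any 1 UH or UM library. It was 549, 630, 715 and 934 without UH replicate 1, 2, 3 or 4, and 703, 497, 739 and 686 without UM replicate 1, 2, 3 or 4. Without the pair that stood apart it was 469, of which 93 rose and 376 fell.

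The balance depended on scaling. Median ratio scaling divides each library by the median of its ratios to the mean profile. Its factors were 0.870, 0.880, 0.854 and 0.932 in UH replicates 1 to 4, against 1.09, 1.08, 1.04 and 1.06 in UM replicates 1 to 4. All UH factors lay below all UM factors (exact permutation p = 0.0286, the smallest 4 against 4 libraries can give; 0.171 adjusted over 9 library measures). The median log2 fold change of the tested clusters was -0.19 as deposited and 0.01 after scaling. After scaling limma called 671 clusters (2.35%), of which 249 rose (0.871%) and 422 fell (1.48%), so that 62.9% of the calls were falls. The majority turned without UH replicate 3 (373 rises and 329 falls) and without the pair of UH replicate 4 and UM replicate 3 (178 and 168).

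The scaled calls overlapped the calls as deposited as follows. Of the 125 rises, 122 remained called after scaling and 3 did not. Of the 1179 falls, 422 remained and 757 did not. Scaling added 127 rises and 0 falls, and 0 calls changed direction. Among the calls that fell by at least 1 log2 unit as deposited there were 431 clusters, and 92 rose by at least 1. After scaling these counts were 275 and 118. At 3 log2 units or more 86 fell and 3 rose as deposited, and 77 fell and 3 rose after scaling. The steep falls were nearly as many on either scale, while the shallow falls were not. This contrast was set in advance, because scaling moved the median log2 fold change only from -0.19 to 0.01.

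The 8 falls with the largest fold among those with no overlap and a UM mean of at least 10 FPKM are given first. Cluster-9253.52189 (339 bases) was listed at 0 in all 4 UH libraries, against 641.12, 517, 1267.63 and 250.26 FPKM in UM replicates 1 to 4 (limma adjusted p = 0.000189). Cluster-9253.46820 (1367 bases) had 0.1, 0.24, 0.09 and 0.14 FPKM in UH, against 300.4, 407.47, 930.62 and 249.94 FPKM in UM. These UH values amount to between 1.9 and 5 estimated fragments, and no UH value came near a UM value (log2 fold change -8.50 ± 0.78 SE, limma adjusted p = 0.000110).

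Cluster-9253.50346 (1404 bases) was listed at 0 in every UH library, against 487.93, 243.32, 623.3 and 144.15 FPKM in UM (limma adjusted p = 0.000980). Cluster-9253.50050 (1689 bases) had 0.04, 1, 0.07 and 0.62 FPKM in UH and 273.8, 301.29, 796.3 and 167.83 FPKM in UM (log2 fold change -7.88 ± 1.11 SE, limma adjusted p = 0.00167). Its UH replicates 2 and 4 were above UH replicates 1 and 3. Cluster-9253.46339 (3260 bases) showed the same order within UH, with 0.13, 1.11, 0.14 and 0.31 FPKM, against 279.18, 264.38, 708.84 and 158.82 FPKM in UM (log2 fold change -7.79 ± 1.02 SE, limma adjusted p = 0.00105).

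Cluster-9253.69669 (361 bases), Cluster-9253.72011 (2600 bases) and Cluster-9253.31640 (452 bases) were also listed at 0 in all UH libraries. Their UM levels were 85.34 to 579.85 FPKM, 68.08 to 313.38 FPKM and 68.38 to 308.53 FPKM (limma adjusted p = 0.000219, 0.00129 and 0.00134). Cluster-9253.72011 and Cluster-9253.31640 had nearly the same level in each UM library, such as 231.9 and 233.87 FPKM in UM replicate 1. Whether they belong to 1 transcript was not tested. The 5 clusters listed at 0 in UH lost their calls in 1 of the alternatives, limma voom on estimated fragments (adjusted p = 0.0588 to 0.0954). All 8 held with any single library left out (limma, highest adjusted p 0.00816). Except for Cluster-9253.50050 and Cluster-9253.46339, these falls were under 1 FPKM in every UH library. They passed the filter through UM alone and had to differ, so their p-values are a description and not separate support.

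**Figure D1:**
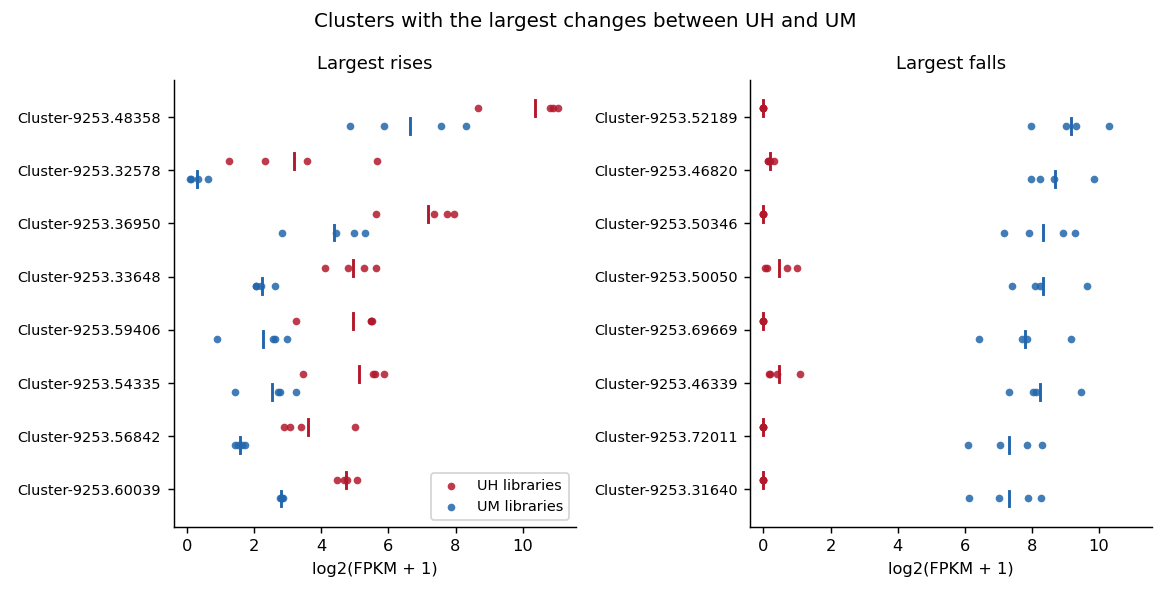
log2(FPKM + 1) of the 8 largest rises (left) and the 8 largest falls (right) among called clusters whose UH and UM values did not overlap and whose higher group averaged at least 10 FPKM. Each point is a library, UH above UM in each row, and the vertical line is the group mean; the UH values of the falls sit at or near 0, while the rises differ by fewer log2 units and spread more within UH.

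Most of the steep falls were highest in the same UM library. Of the 86 clusters called lower by at least 3 log2 units, 75 had their highest UM value in replicate 3 and 58 their lowest in replicate 4. In 38 the full order was UM replicate 3, 1, 2, 4 from high to low. The pattern was not limited to steep falls. Among the 345 falls of 1 to 3 log2 units UM replicate 3 was highest in 200 and UM replicate 4 lowest in 137. Shares over all tested clusters were not counted. Summed over the 86 clusters, FPKM came to 60.1, 199, 48.5 and 141 in UH, against 7140.3, 5772, 13709.5 and 3889.5 in UM replicates 1 to 4. The clusters share libraries and do not count as separate observations. They ranged from 309 to 13044 bases, with a median of 2326.5, and 10 were listed at 0 in all UH libraries.

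The UL and Ck libraries did not enter the fold change. Their summed FPKM over the 86 clusters ran from 2116 to 10367 in UL and from 2282 to 7516 in Ck, all above the highest UH sum of 199. Sums do not speak for each cluster: Cluster-9253.99650 (10148 bases), chosen after its values were seen, was listed at 0 in all UH, UL and Ck libraries, against 1.07, 2.73, 85.13 and 20.54 FPKM in UM. In 67 of the 86 clusters all 4 UH values lay below all other 12 libraries. The same held for 822 of the 1179 falls (69.7%), beside 7.19% of all tested clusters. Because the UM libraries are among these 12 and the falls were chosen as lower than UM, this share is a description with no test. Among the 125 rises, 74 had all UH values above the other 12 libraries (59.2%), beside 0.854% of all tested clusters.

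**Figure D2:**
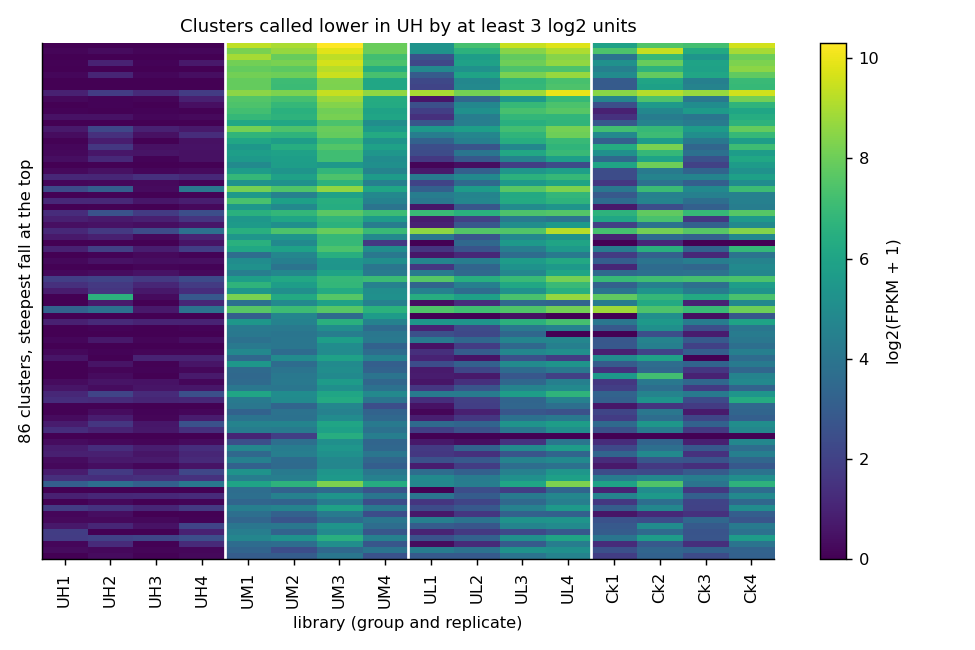
log2(FPKM + 1) in all 16 libraries (columns) of the 86 clusters (rows) called lower in UH by at least 3 log2 units. The 4 UH columns are dark, UM replicate 3 is the brightest UM column, and most UL and Ck cells lie between, with UL replicates 1 and 2 and Ck replicates 1 and 3 dimmer than the others of their group.

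UH replicate 4 was the lowest UH library in 12 of the 18 rises of at least 2 log2 units and in 52 of the 92 of at least 1. How often it was lowest over all tested clusters was not counted. The rises named next are the largest of those with no overlap and a UH mean of at least 10 FPKM. Cluster-9253.48358, the longest rise at 8023 bases and also the most abundant one, had 1788.24, 1917.66, 2150.84 and 406.01 FPKM in UH, against 317.44, 57.75, 27.95 and 189.26 FPKM in UM. UH replicate 4 came nearest to UM, and the groups did not overlap (log2 fold change 3.71 ± 0.95 SE, limma adjusted p = 0.0423). UL held 0.15 to 0.51 FPKM of it and Ck 4.97 to 169.87 FPKM. The call was lost without UH replicate 1, 2 or 3, without UM replicate 2, 3 or 4, and without UL replicate 1 or 2 (highest limma adjusted p = 0.115). It was also lost in 4 of 12 other settings (limma adjusted p up to 0.0979).

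Cluster-9253.36950 (2225 bases) ordered the UH libraries in the same way, with 162.08, 213.73, 248.87 and 48.66 FPKM, against 30.6, 20.69, 6.1 and 38.64 FPKM in UM (log2 fold change 2.78 ± 0.68 SE, limma adjusted p = 0.0363). Cluster-9253.59406 (1760 bases) had 43.81, 44.02, 44.18 and 8.55 FPKM in UH and 5.08, 4.86, 0.84 and 6.89 FPKM in UM (limma adjusted p = 0.0172). Cluster-9253.54335 (6865 bases) had 56.86, 47.45, 45.22 and 9.91 FPKM in UH and 5.48, 5.77, 1.66 and 8.4 FPKM in UM (limma adjusted p = 0.0145). In these 3 clusters UH replicate 4 was the lowest UH library and UM replicate 3 the lowest UM library. Each lost its call without UH replicate 1, and over all leave-outs limma gave adjusted p of up to 0.0948, 0.058 and 0.051. Cluster-9253.36950 also lost its call in 4 of 12 other settings (limma adjusted p up to 0.0952), and Cluster-9253.59406 and Cluster-9253.54335 in 0.

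Cluster-9253.33648 (1691 bases) was the largest of these named rises to hold with any single library left out (highest limma adjusted p = 0.00262). It had 26.5, 37.71, 48.45 and 16.27 FPKM in UH, against 3.18, 5.09, 3.16 and 3.6 FPKM in UM (log2 fold change 2.72 ± 0.31 SE, limma adjusted p = 0.000452). Cluster-9253.60039 (977 bases) also held, with 24.45, 25.97, 32.62 and 20.95 FPKM in UH and 6.07, 5.98, 5.75 and 6.26 FPKM in UM (log2 fold change 1.93 ± 0.26 SE, limma adjusted p = 0.00129). Their UL values were at most 3.64 and 1.94 FPKM and their Ck values at most 2.83 and 3.52 FPKM, below every UH value.

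Cluster-9253.32578 (1152 bases) spread widely within UH, with 49.01, 10.85, 4.01 and 1.35 FPKM, against 0.06, 0.24, 0.07 and 0.54 FPKM in UM. The UM values amount to between 1 and 9 estimated fragments (limma adjusted p = 0.0369, up to 0.0924 with a library left out). The call was also lost in 3 of 11 other settings (limma adjusted p up to 0.102). Cluster-9253.56842 (320 bases) had 7.44, 6.34, 9.6 and 30.76 FPKM in UH, against 2.29, 1.69, 2.08 and 1.85 FPKM in UM. Each of these UM values is worth 2 estimated fragments, so the call rests on few fragments (limma adjusted p = 0.0131).

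Other abundant calls changed by smaller folds. Cluster-9253.46994 (3547 bases) averaged 369 ± 89.0 FPKM in UH and 122 ± 32.3 FPKM in UM (SD, n = 4 each; limma adjusted p = 0.0135, and 0.0504 without UM replicate 2). Cluster-9253.48277 (4050 bases) averaged 910 ± 158 FPKM in UH and 563 ± 90.5 FPKM in UM (limma adjusted p = 0.0417, up to 0.113 with a library left out). It also lost its call in 5 of 12 other settings (limma adjusted p up to 0.258). In the other direction Cluster-9253.49103 (3187 bases) had 94.46, 95.58, 114.61 and 74.99 FPKM in UH, against 379.88, 299.36, 522.75 and 348.98 FPKM in UM (log2 fold change -2.004 ± 0.30 SE, limma adjusted p = 0.00226). Cluster-9253.48283 (2313 bases) averaged 396 ± 121 FPKM in UH and 699 ± 51.9 FPKM in UM (SD, n = 4 each). Its fall passed as deposited (limma adjusted p = 0.0319) and did not pass after median ratio scaling (0.201). The call was lost in 4 of 12 other settings, scaling among them. It was also lost without UH replicate 1, 2 or 4 and without any 1 UM library (highest limma adjusted p = 0.0938).

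The longest falls were shallow except for 1. Cluster-9253.48459 (20812 bases) had 4.11, 6.06, 4.39 and 5.48 FPKM in UH, against 34.41, 22.73, 39.53 and 24.36 FPKM in UM (log2 fold change -2.36 ± 0.34 SE, limma adjusted p = 0.00193). Cluster-9253.51985 (17203 bases) averaged 1.15 ± 0.212 FPKM in UH and 2.98 ± 0.690 FPKM in UM (limma adjusted p = 0.0219). Cluster-9253.52702 (16945 bases) averaged 1.465 ± 0.180 FPKM in UH and 3.11 ± 0.104 FPKM in UM (limma adjusted p = 0.0211). These last calls were lost without 3 and without 6 of the libraries, UH replicates 1 and 2 and UM replicate 2 in both cases (highest limma adjusted p = 0.0775 and 0.0665). They were also lost in 1 of 11 and in 2 of 12 other settings (limma adjusted p up to 0.063 and 0.0668). Among the long rises, Cluster-9253.48596 (7678 bases) averaged 122 ± 47.1 FPKM in UH and 42.5 ± 11.9 FPKM in UM (limma adjusted p = 0.0426, up to 0.122 with a library left out). Its call was lost in 9 of the leave-outs and in 5 of 12 other settings (limma adjusted p up to 0.103).

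None of the 5 most abundant clusters passed in limma. Cluster-9253.47764 (703 bases) was the leading cluster in all 8 libraries and took 11.8, 8.37, 8.28 and 8.80% of the FPKM sum in UH, against 10.5, 14.3, 14.7 and 12.5% in UM. These shares overlapped between the groups (exact permutation p = 0.0571, 0.171 adjusted over the library measures). Cluster-9253.45104 (1482 bases) had 9920.09, 27193.49, 1282.25 and 15.08 FPKM in UH, against 13371.53, 24415.68, 67.64 and 1335.63 FPKM in UM. It spread over more than 3 powers of 10 within UH (limma adjusted p = 0.897). Cluster-9253.47660 (452 bases), Cluster-9253.51649 (377 bases) and Cluster-9253.48231 (750 bases) had limma adjusted p = 0.675, 0.362 and 0.577.

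Large positive differences mostly did not pass. Of the 64 tested clusters whose log2 fold change was at least 3, 3 passed, while 86 of the 95 clusters at -3 or below passed. The 61 that did not pass had a median SE of 1.75 log2 units, against 0.74 among the 86 falls. Summed over the 61 clusters, FPKM came to 11829.5, 41749, 10517 and 49569.8 in UH replicates 1 to 4, against 1409, 486, 307 and 2782 in UM. The sums were 4910, 1444, 119 and 49333 in UL replicates 1 to 4, and 17750, 33877, 21334 and 1354 in Ck replicates 1 to 4. In 46 of the 61 clusters the highest UH value was in replicate 4. An example chosen after its values were seen is Cluster-9253.81022 (431 bases), with 25.94, 1162.82, 8.46 and 2668.79 FPKM in UH, against 0, 0, 0 and 0.65 FPKM in UM (log2 fold change 7.21 ± 2.02 SE, limma adjusted p = 0.0564). UL replicate 4 had 1258.18 FPKM of it, so that a high level was not limited to UH.

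**Figure D3:**
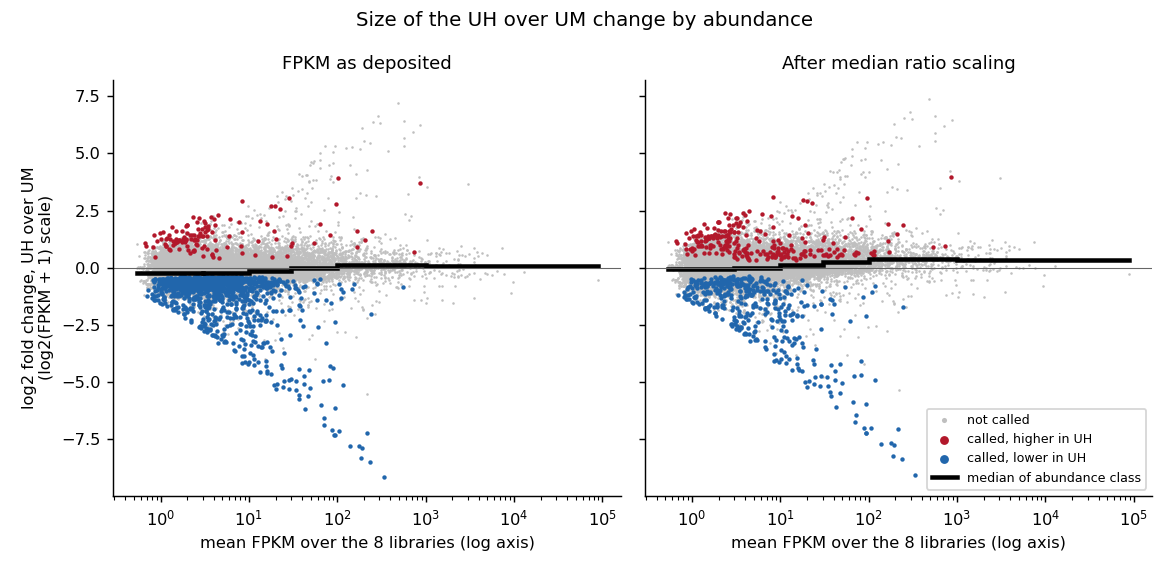
log2 fold change of UH over UM against the mean FPKM of the 8 libraries (log axis) for the 28575 tested clusters, as deposited (left) and after median ratio scaling (right). Red points were called higher and blue points lower in UH, and black bars are class medians, which run from -0.21 in the lowest class to 0.13 at 100 to 1000 FPKM on the left, and from -0.05 to 0.40 on the right; the grey points at high positive folds are the large differences that did not pass.

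The direction of the change followed abundance. In classes of mean FPKM over the 8 libraries, the median log2 fold change as deposited was -0.21 under 3 FPKM (12451 clusters), -0.22 at 3 to 10 (9832), -0.13 at 10 to 30 (3987) and -0.00 at 30 to 100 (1516). It was 0.13 at 100 to 1000 FPKM (685) and 0.08 at 1000 FPKM and over (104). After median ratio scaling the same medians were -0.05, 0.00, 0.12, 0.26, 0.40 and 0.35. Scaling moved every class up, and clusters under 3 FPKM lay below those at 100 to 1000 FPKM on both scales; quantile normalization, which gives all libraries 1 distribution, removed the order (-0.01 and -0.03).

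This order was tested over libraries. In each library, each cluster's log2 value was taken as a deviation from its mean over the 8 libraries, and the median over a class was kept. The median of the class under 3 FPKM minus that of the class at 100 to 1000 FPKM was -0.256, -0.177, -0.113 and -0.188 in UH replicates 1 to 4, against 0.169, 0.259, 0.00635 and 0.158 in UM replicates 1 to 4. All UH values lay below 0 and all UM values above it, with UM replicate 3 nearest to 0. The difference of the means was -0.33 (exact permutation p = 0.0286, 0.04 adjusted over 14 tests of classes). After scaling it was -0.43 with the same exact permutation p, which adjusted to 0.08. As deposited the adjusted value was 0.08 without UH replicate 1, 0.0727 without UH replicate 4 and 0.0571 without UM replicate 1, at differences of -0.31, -0.33 and -0.32 (exact permutation tests). It was 0.05 without UM replicate 2, 3 or 4, so it stayed under the threshold only without UH replicate 2 or 3. The difference itself ran from -0.379 to -0.294 with 1 library left out. Exact p-values of 4 against 3 libraries move in coarse steps, though no coarser than those of 4 against 4. Adjusted values also depend partly on how many of the 14 tests tie. Why single leave-outs missed was not tested.

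As deposited, the class medians of all 4 UH libraries lay below those of all 4 UM libraries under 3 FPKM and at 3 to 10 FPKM (differences -0.22 and -0.23, each adjusted exact permutation p = 0.04). At 10 to 30 FPKM the difference was -0.14 (adjusted exact permutation p = 0.04), with no overlap. With 1 UM library left out it no longer passed (adjusted exact permutation p = 0.08, 0.08, 0.0727 and 0.08 without UM replicate 1, 2, 3 and 4). The classes under 3 and at 3 to 10 FPKM gave 0.0571 without UM replicate 1 and 0.05, not under the threshold, without UM replicate 2, 3 or 4 (adjusted exact permutation p). These misses share the coarse steps described above. With 1 library left out the differences ran from -0.237 to -0.209 under 3 FPKM, -0.252 to -0.206 at 3 to 10 and -0.167 to -0.108 at 10 to 30. At 30 to 100, 100 to 1000 and over 1000 FPKM the difference with all libraries was -0.01, 0.11 and 0.09 (adjusted exact permutation p = 0.886, 0.0727 and 0.646). Among the calls, falls outnumbered rises in every class up to 1000 FPKM, also at 100 to 1000, where the median was positive. Limma called 4.03% of the clusters under 3 FPKM, 5.57% at 3 to 10 and 4.41% at 10 to 30. The share was 3.56% at 30 to 100 FPKM, 3.5% at 100 to 1000 and 0% above, beside 4.56% of all tested clusters. Rises and falls numbered 70 and 432 under 3 FPKM, 30 and 518 at 3 to 10, and 12 and 164 at 10 to 30. They numbered 6 and 48 at 30 to 100 FPKM, 7 and 17 at 100 to 1000, and 0 and 0 above. In this last class limma gave an unadjusted p under 0.05 for 5 of 104 clusters, voom called 0 as well and array weights 3, and the median SE was 0.67, against 0.22 under 3 FPKM.

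**Figure D4:**
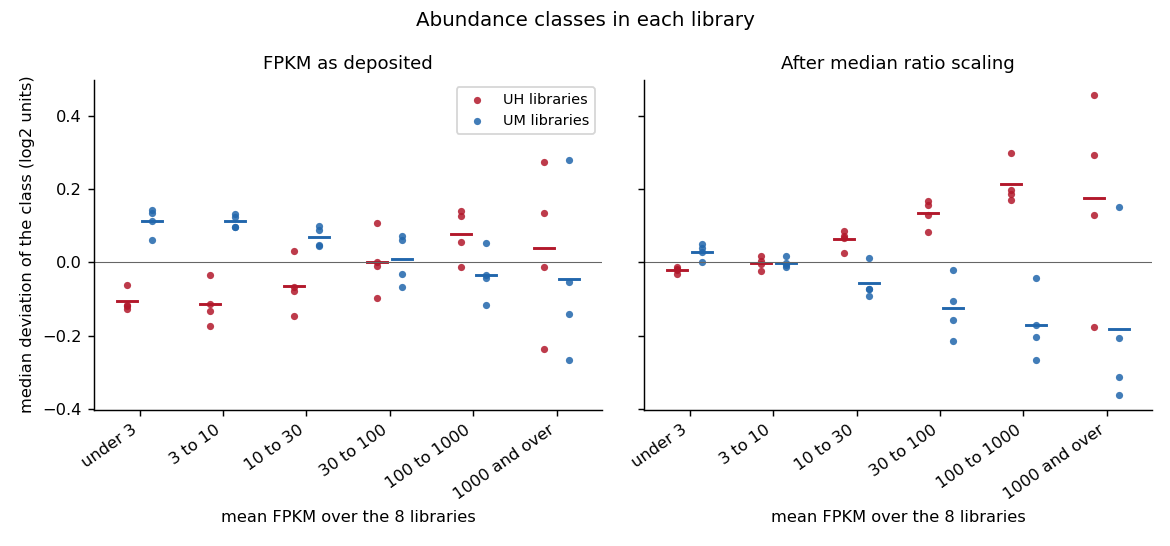
Median deviation (log2 units) of each abundance class in each library from the mean over the 8 libraries, as deposited (left) and after median ratio scaling (right). Points are libraries, UH left of UM in each class, and horizontal lines are group means; the UH points lie below the UM points in the low classes on the left, and above them at 100 to 1000 FPKM on the right.

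Shares of estimated fragments need no fold change but come from the same FPKM values and classes. They differed in the same sense. The 685 clusters at 100 to 1000 FPKM held 26.6, 26.6, 25.7 and 26.8% of the fragments in UH replicates 1 to 4, against 22.8, 21.9, 24.3 and 22.8% in UM. The groups did not overlap. All clusters under 3 FPKM, tested or not (120125), held 4.63 ± 0.313% in UH and 5.77 ± 0.199% in UM, and those at 3 to 10 FPKM held 10.2 ± 0.968% in UH and 12.2 ± 0.312% in UM (SD, n = 4 each), again with no overlap. At 1000 FPKM and over the shares were 23.5 to 32.8% in UH and 25.1 to 31.0% in UM and overlapped. By share of the FPKM sum, the groups again did not overlap under 3 and at 100 to 1000 FPKM. At 3 to 10 FPKM they did, with 5.97 to 7.01% in UH and 6.70 to 8.03% in UM. Clusters of 1000 FPKM and over averaged 42.7% of the FPKM sum in UH and 45.4% in UM. Clusters listed above 0 averaged 78050.5 ± 978 in UH and 81039 ± 2364 in UM (SD, n = 4 each; exact permutation p = 0.0857, adjusted 0.193), and the groups overlapped. At 1 FPKM or more, the cutoff of the filter, UH libraries held 28643 to 30500 clusters and UM libraries 31382 to 32806. These counts did not overlap and were not tested. The part of these shares in the falls was not tested.

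Length made less difference to the direction. Median log2 fold changes as deposited were -0.19 under 500 bases (5050 clusters), -0.19 from 500 to under 1000 (5645), -0.18 from 1000 to under 2000 (7123), -0.18 from 2000 to under 4000 (6893) and -0.22 at 4000 bases and over (3864). After scaling they ran from -0.01 at 4000 bases and over to 0.03 from 2000 to under 4000 bases. The class median under 500 bases minus that at 4000 bases and over averaged 0.06 ± 0.03 in UH and 0.02 ± 0.01 in UM (SD, n = 4 each), a difference of 0.03 that did not pass (exact permutation p = 0.114, adjusted 0.133). Without UH replicate 4 it was 0.042 and passed (adjusted exact permutation p = 0.04). Within each length class the 100 to 1000 FPKM clusters had a higher median than those under 3 FPKM, from -0.02 against -0.17 under 500 bases to 0.10 against -0.23 at 4000 bases and over.

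The share of clusters called grew with length, while the standard error fell. As deposited 2.53% of the clusters under 500 bases were called, 3.91% from 500 to under 1000, 4.91% from 1000 to under 2000, 4.98% from 2000 to under 4000 and 6.78% at 4000 bases and over. The median SE in these classes was 0.40, 0.24, 0.19, 0.17 and 0.16 log2 units. Changes of 1 log2 unit or more in either direction ran the other way, at 9.90% of clusters under 500 bases and 3.57% at 4000 bases and over. Falls made up 75.8% of the calls under 500 bases and 95% at 4000 bases and over; after scaling these shares were 50.7 and 70.0%. Mean fragment length, which enters FPKM most on short clusters, was estimated at 265.1 to 290.8 bases in UH and 261.6 to 281.8 bases in UM (exact permutation p = 0.457).

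**Figure D5:**
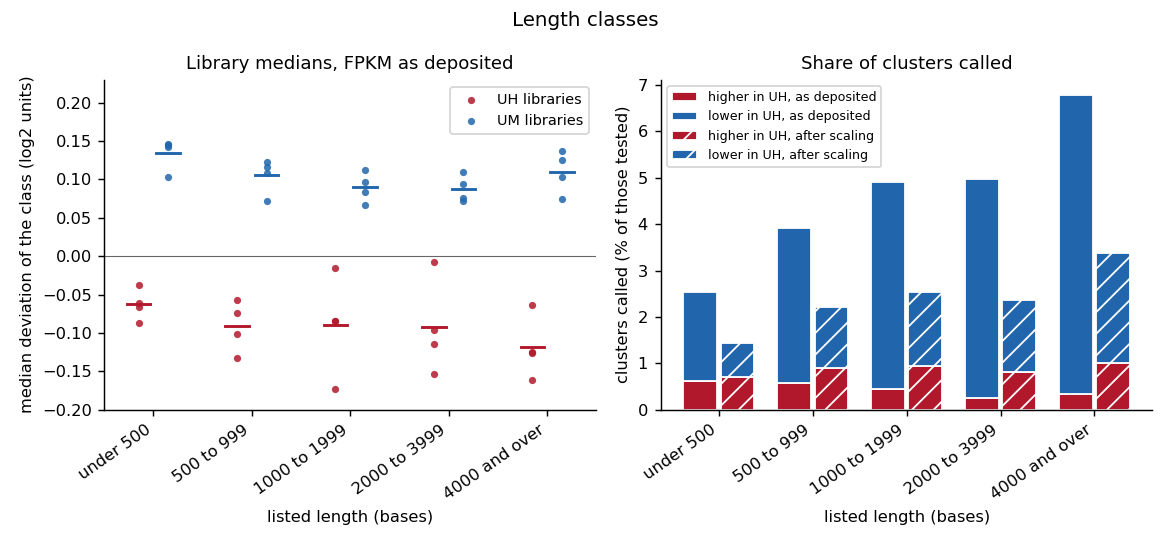
Left, median deviation (log2 units) of each length class in each library, as deposited, UH left of UM, with group means as lines; all UH points lie below all UM points in all 5 classes. Right, share of tested clusters called (%) by length class, stacked as higher and lower in UH, as deposited (plain) and after median ratio scaling (hatched), growing from 2.53% to 6.78% as deposited.

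The filter also bears on these counts. A cluster that reached 1 FPKM in all 4 libraries of 1 group and in none of the other passed through that group alone and had to differ. There were 82 such clusters for UH, of which 34 were called as rises, and 407 for UM, of which 208 were called as falls. The 82 include the named rise Cluster-9253.32578, and the 407 include the named falls under 1 FPKM in every UH library. In all, 2472 clusters passed with exactly 4 libraries and 3464 missed with exactly 3. Just inside were Cluster-16858.0 (309 bases) and Cluster-21391.0 (447 bases), whose deciding library had 1 FPKM, and just outside were Cluster-16385.0 (387 bases) and Cluster-1701.0 (373 bases), at 0.99 FPKM. The leading number in the names of the UH and UM calls described above (not of these 4 filter examples) is shared by 28437 of the tested clusters (99.5%), 1301 of the called ones (99.8%) and 102255 of the whole table; what it stands for is not given in the labels.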

How the data were processed

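Per the labels' protocols, poly-A RNA of whole spiders was captured with poly-T beads, fragmented and made into Illumina libraries. The deposited table lists FPKM as the authors computed it, to 2 decimals, with the listed length of each cluster, taken to be in bases. A build named in the submitters' processing notes, mm10, is of mouse and does not match the organism. Assembler, aligner and counter: not given in the sources used here.

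Groups and replicate numbers came from the labels. Clusters that reached 1 FPKM in 4 or more of the 8 UH and UM libraries were tested in limma 3.58.1 (R 4.3.3) on log2(FPKM + 1), with all 16 libraries in 4 groups, 12 residual degrees of freedom, a mean-variance trend, two-sided tests and Benjamini-Hochberg adjustment. The pseudocount of 1 understates changes of low clusters. Median ratio factors used the 25355 tested clusters above 0 in all libraries. Exact permutation tests, two-sided, served for values with 1 number per library. Depth and fragment length were found by a grid search for the step that makes low values whole: in the 8 libraries 97.0 to 98.7% of the low values (at most 10 fragments, clusters no longer than 900 bases) came out whole within 0.1. FPKM is not a count, so no count model was the main test. Limma and the depth search were tested on simulated data.

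Same-numbered UH and UM libraries did not deviate together. Clusters were named by rule: the 8 largest rises and falls without overlap and with at least 10 FPKM in the higher group, the 3 most abundant and 3 longest calls in each direction, and the 5 most abundant clusters. The comparison, classes and lists were chosen with earlier results of these data known. Python 3.11.15 was used for summaries.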

Additional observations from a re-analysis of the deposited data

Results flagged for a closer look

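Among 101 sets of 4 values (library measures, named clusters and class medians), 8 had a library farther from the rest than Dixon's 95% critical value for 4 samples allows; chance alone marks about 1 in 20 sets. In UH, replicate 3 had the lowest FPKM sum (719263) and replicate 1 the highest share of the leading cluster (11.8%) and the lowest estimated depth (18.32 M fragments). UH replicate 4 was the low library for Cluster-9253.59406 (8.55 FPKM) and Cluster-9253.46994 (236.92 FPKM) and the high one for Cluster-9253.56842 (30.76 FPKM). UH replicate 3 was the low library for Cluster-9253.51649 (3040.33 FPKM). In UM, replicate 3 had the lowest median deviation of clusters under 500 bases (0.103 log2 units).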

How the results depend on the processing

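Counts of calls moved by over 1.5 times under several settings. Quantile normalization gave 683 calls (237 rose, 446 fell), median ratio scaling 671 (249 and 422), no filter on low values 681 (206 and 475), at least 1 FPKM in all 8 libraries 789 (42 and 747), and array weights 5187 (656 and 4531). With single libraries left out the count ran from 497 to 1743, rises from 49 to 174 and falls from 448 to 1591. Without UH replicate 4 and UM replicate 3, 469 passed (93 and 376).

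After median ratio scaling, leaving out UH replicates 1 to 4 in turn gave 332, 364, 702 and 588 calls (115, 102, 373 and 237 rose; 217, 262, 329 and 351 fell). Leaving out UM replicates 1 to 4 gave 468, 304, 413 and 448 (142, 87, 180 and 150 rose; 326, 217, 233 and 298 fell). UH replicate 4 and UM replicate 3 left out together gave 346 (178 and 168), and array weights 2201 (1276 and 925). The scaled alternatives and the pair left out were chosen after seeing the data.

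A replicate block gave 1026 calls (110 rose, 916 fell). Same-numbered UH and UM libraries correlated at 0.113, 0.119, -0.116 and -0.063, so the numbers were not taken as pairs.

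The median shift between UH and UM (-0.20) was 0.0138 after median ratio scaling and -0.0225 with quantile normalization, neither past the threshold (adjusted exact permutation p = 0.114 and 0.533). It ran from -0.216 to -0.180 with libraries left out. It missed the threshold without any 1 UM library (adjusted exact permutation p = 0.0571 without UM replicate 1 and 0.05 without UM replicate 2, 3 or 4). These adjusted values move in coarse steps, because 4 against 3 libraries allow few p-values. The difference between the classes under 3 and at 100 to 1000 FPKM was -0.435 after scaling, 0.0341 with quantile normalization and -0.379 to -0.294 with libraries left out. The difference between the shortest and longest classes was 0.0190 to 0.0418 with libraries left out.

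Other values changed sign. After scaling these were the classes at 10 to 30 and 30 to 100 FPKM (0.119 and 0.258) and the 4 length classes under 4000 bases, shortest to longest (0.00229, 0.00863, 0.0283 and 0.0306). The 100 to 1000 FPKM class did so with quantile normalization (-0.0508), and the 30 to 100 class ran from -0.0441 to 0.0241 with libraries left out. The UH over UM ratio of the share of fragments in tested clusters ran from 0.99977 to 1.00262. Cluster-9253.47660 was at 0.0778 after scaling and 0.0812 with quantile normalization, Cluster-9253.48231 at 0.0049 after scaling, and Cluster-9253.45104 between -2.30 and 1.59 with libraries left out; none of the 3 was called. The cause of these changes was not tested. Over the 29 named clusters, 402 of 464 fits with a library left out and 301 of 337 others kept their direction and their side of the threshold. The 29 include the most abundant clusters, which were not called, and falls that passed the filter through UM alone. Fits without a UL or Ck library, which does not enter the fold change, are also counted. These numbers are therefore no measure of how stable the calls were.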
